A study of Homo sapiens with 4 samples.

Results

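The claudins are the 4-pass membrane proteins of the tight junction, and 10 of their genes were followed through 4 RNA sequencing libraries. The members were CLDN1, CLDN3, CLDN4, CLDN6, CLDN7, CLDN9, CLDN10, CLDN12, CLDN15 and CLDN16, taken by gene symbol from a count table of 26364 genes. The choice was made with earlier results of these data known. Of the 10, 8 passed the filter on low counts that left 15599 genes for testing, and CLDN6 and CLDN10 did not.

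The libraries came from Ishikawa cells, an epithelial line from a human endometrial adenocarcinoma, in which ESR1 carried the Y537S change in the ligand-binding domain. ESR1 encodes estrogen receptor alpha, and this substitution is known to leave the receptor active without hormone. All 4 libraries carried the mutation, so no wild-type cells entered any comparison here. Hormone-deprived cells of 2 mutant clones received either 0.1% DMSO as the vehicle or 10 nM 17β-estradiol (E2) for 8 h, and each clone gave 1 library per treatment. The table's columns carried the tags A4 and B212, which stand for the clones, although the labels number the clones and do not give the tags. Each tag is a single clone of one line, so a difference between A4 and B212 describes these cells and cannot be assigned to the mutation. Nothing stated that libraries came from separate cultures beyond the clones, and p-values therefore measure the spread between these 4 libraries only.

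Claudins of adjoining cells bind each other in the intercellular cleft and polymerise into the strands that seal the space between epithelial cells. Some claudins chiefly tighten that seal, and others line pores that let selected ions through, so the mixture a cell makes sets how leaky its junctions are and to which ions. In the uterus the luminal and glandular epithelium carries tight junctions, and steroid hormones are known to alter them over the cycle. Claudin transcription is known to be repressed by the mesenchymal factors SNAI1, SNAI2 and ZEB1, which bind E-boxes, and GRHL2 is a known activator of CLDN4.

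The promoters of 5 members are shown because their transcripts differed most between the tags or after E2, because the promoter held the largest numbers of searched motifs, or, for CLDN3, as the neighbour of CLDN4. RefSeq promoters on GRCh38.p14 were matched by symbol for 9 of the 10 members, all but CLDN9. Each sequence is the 250 bases before an annotated start, 5′ to 3′ on the gene's own strand. The windows are chr3:190322447-190322696 on the minus strand for CLDN1, chr3:190387913-190388162 on the plus strand for CLDN16, chr7:73770271-73770520 on the minus strand for CLDN3, chr7:73830746-73830995 on the plus strand for CLDN4 and chr17:7262479-7262728 on the minus strand for CLDN7. Capitals mark 3 motifs on either strand: GGTCA, a single arm of the palindromic estrogen response element, CAGGTG, the E-box of the SNAI and ZEB repressors, and TGANTCA, the AP-1 site.
CLDN1: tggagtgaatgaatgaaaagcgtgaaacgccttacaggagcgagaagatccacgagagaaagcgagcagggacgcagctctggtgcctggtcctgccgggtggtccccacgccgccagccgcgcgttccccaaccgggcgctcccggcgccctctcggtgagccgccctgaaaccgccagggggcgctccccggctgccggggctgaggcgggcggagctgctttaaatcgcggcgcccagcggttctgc
CLDN16: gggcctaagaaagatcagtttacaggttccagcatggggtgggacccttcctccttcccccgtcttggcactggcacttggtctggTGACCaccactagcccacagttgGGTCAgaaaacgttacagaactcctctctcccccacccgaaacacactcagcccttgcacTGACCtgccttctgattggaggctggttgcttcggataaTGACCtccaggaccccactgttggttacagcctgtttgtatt
CLDN3: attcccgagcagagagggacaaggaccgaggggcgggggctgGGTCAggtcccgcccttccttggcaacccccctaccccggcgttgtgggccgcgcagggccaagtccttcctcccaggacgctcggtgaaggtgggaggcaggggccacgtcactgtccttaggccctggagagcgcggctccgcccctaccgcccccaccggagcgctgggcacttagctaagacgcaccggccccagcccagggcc
CLDN4: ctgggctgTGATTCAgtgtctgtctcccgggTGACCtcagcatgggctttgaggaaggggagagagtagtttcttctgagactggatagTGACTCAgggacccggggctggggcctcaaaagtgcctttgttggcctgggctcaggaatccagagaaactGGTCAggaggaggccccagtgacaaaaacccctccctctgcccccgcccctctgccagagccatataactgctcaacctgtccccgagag
CLDN7: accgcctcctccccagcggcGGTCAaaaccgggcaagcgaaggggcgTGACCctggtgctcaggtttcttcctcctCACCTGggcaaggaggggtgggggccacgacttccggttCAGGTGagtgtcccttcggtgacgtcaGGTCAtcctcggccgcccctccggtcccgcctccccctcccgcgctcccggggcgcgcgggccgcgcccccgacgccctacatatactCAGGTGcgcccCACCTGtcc

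No member's window held the full estrogen response element, GGTCA and TGACC with any 3 bases between them. The full element holds the single arm on both strands and was found in 0.0399% of 35116 promoters of the same length. The single arm GGTCA was in 4 of 9 members' windows against 32.6% of all promoters. It matched 4 times in CLDN16, 3 times in CLDN7, 2 times in CLDN4 and once in CLDN3, and CLDN1 held none. The CAGGTG E-box was in 1 of 9 windows, that of CLDN7, against 17.5% of all promoters, and CLDN7 had 4 matches at 174, 135, 20 and 9 bases before the start. The AP-1 site was in the windows of CLDN4, with 2 matches, and CLDN15, with 1, against 6.57% of all promoters. Among the members these 3 motifs had 0 overlaps with one another. The grainyhead site AACCGGTT was in 0 of 9 windows and in 0.117% of all promoters. Left in lower case above, the GC box GGGCGG was in 7 of 9 windows against 42.6% of all promoters, and the TATA box TATAAA in 0 of 9 against 10.7%. CLDN1 and CLDN7 had windows rich in CG dinucleotides, with 28 and 25, whereas CLDN16 and CLDN4 had 4 each. A match is a string of letters in this window, and binding was not measured.

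In gene order on GRCh38, 6 of the members formed 3 pairs with 0 protein-coding genes between them. CLDN1 and CLDN16 are next to each other in that order on chromosome 3, on opposite strands. CLDN16 begins before CLDN1 in the order, while its promoter window lies beyond that of CLDN1. By these positions the CLDN16 gene spans CLDN1, and the window shown belongs to a later start of CLDN16. CLDN3 and CLDN4 are neighbours on chromosome 7, and CLDN6 and CLDN9 on chromosome 16. The deposited counts were made on hg19, so these positions describe the genes and not the authors' alignments.

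Read depth was high and similar, with 71575816 to 85222856 counts per library. ESR1, the mutated gene, was measured at 109.9 and 97.0 CPM in A4 with DMSO and with E2, and at 107.4 and 86.5 CPM in B212. CPM stands for counts per 1000000 counts of a library, whose size was first scaled with TMM, the trimmed-mean method of edgeR. The 5 markers of simple epithelium summed to 2027 to 2637 CPM and the 3 markers of Müllerian duct epithelium to 319.7 to 579.2 CPM, so the labelled cell type's markers were present. Both sums were higher in the B212 libraries than in the A4 libraries. Between the tags KRT19 (log2 difference 1.01 ± 0.069), CDH1 (0.50 ± 0.071), KRT8 (0.26 ± 0.073), SOX17 (0.93 ± 0.082), EMX2 (0.80 ± 0.069) and PAX8 (0.61 ± 0.072) were higher in B212 by edgeR, and KRT18 and EPCAM did not pass. The part of these marker differences in the claudin differences was not tested. The 4 endothelial markers summed to 2.30 to 5.11 CPM with PECAM1 at 0, and the 4 leukocyte markers to 0.451 to 0.573 CPM with CD3E at 0. The 7 fibroblast markers summed to 131.0 and 94.6 CPM in A4 and to 43.3 and 35.4 CPM in B212. Nearly all of that sum was COL1A1, while the fibroblast markers DCN and LUM had 0 to 5 counts in every library.

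Per kilobase of exon, 5 claudins made up nearly the whole pool, namely CLDN1, CLDN7, CLDN3, CLDN12 and CLDN4. Over the 4 libraries the levels were 44.0 ± 16.2 CPM per kb for CLDN1 (SD, n = 4) and 41.1 ± 9.70 for CLDN7. CLDN3 stood at 26.7 ± 2.57, CLDN12 at 24.9 ± 1.67 and CLDN4 at 12.2 ± 5.93 CPM per kb. CLDN1 and CLDN7 overlapped in range, and so did CLDN3 and CLDN12, so neither pair had a fixed order. CLDN4 lay below CLDN3 and CLDN12 and above CLDN16 in each of the 4 libraries. That order depends on the exon lengths used, 4196 bases for CLDN4, 1274 for CLDN3 and 3569 for CLDN12. In CPM alone CLDN4 lay above CLDN3 in B212, at 76.6 and 68.6 against 36.5 and 37.3 with DMSO and E2. The transcripts in use were not measured, so the shares and ratios of CLDN4 per kb carry the same limit.

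A lower tier held CLDN16 at 2.62 ± 0.826 and CLDN15 at 2.29 ± 0.476 CPM per kb, again with overlapping ranges. CLDN9 followed at 0.410 ± 0.047 CPM per kb. CLDN6, an embryonic claudin that some tumours re-express, had only 4 to 7 counts per library. CLDN10, whose isoforms form cation or anion pores, had 1 and 0 counts in A4 with DMSO and E2 and 1 and 2 counts in B212. For CLDN10 no library exceeded the 3 counts that a true 0 allows, worth 0.0351 to 0.0410 CPM, and no fold is given. The 10 members summed to 96.5% to 97.6% of all claudin transcripts per kb in the table.

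**Figure D1:**
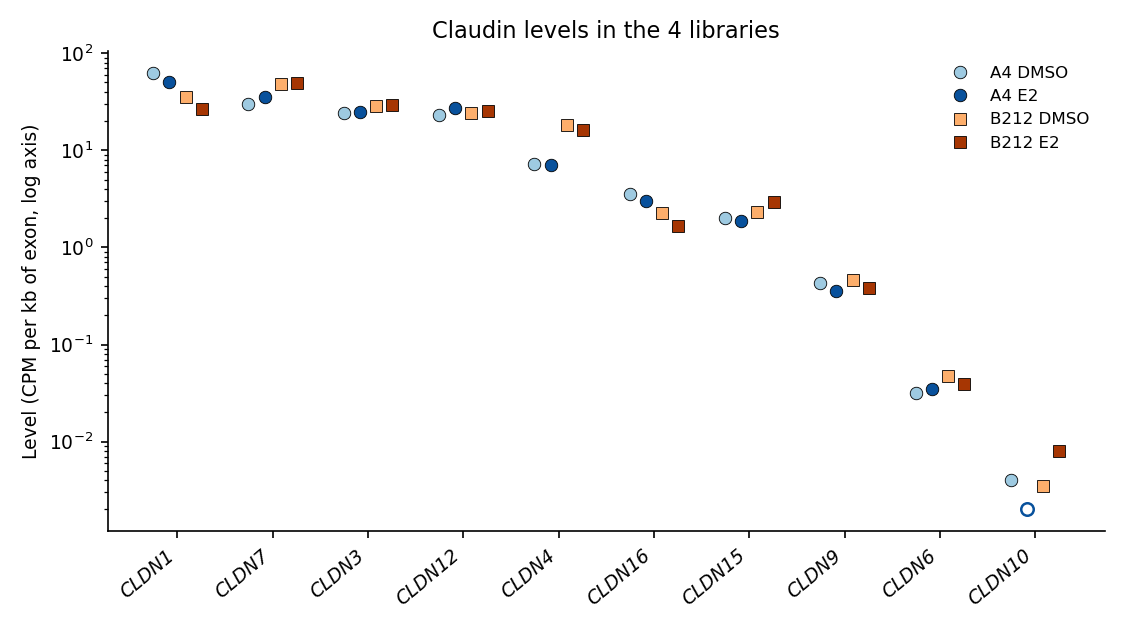
Levels of the 10 claudins in the 4 libraries, in CPM per kilobase of exon on a log axis, with circles for A4 and squares for B212. The open circle for CLDN10 stands for a value of 0, which a log axis cannot show. CLDN1, CLDN7, CLDN3 and CLDN12 lie at the top in every library, and CLDN4 is higher in both B212 libraries.

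The most evident pattern in the claudins was the clone. CLDN4 was higher in B212 and CLDN1 lower, and CLDN7, CLDN15 and CLDN3 were also higher, while CLDN16 was lower. By edgeR's quasi-likelihood test, with treatment as a covariate and Benjamini-Hochberg adjustment over all genes, 6 of the 8 tested members passed the adjusted p threshold of 0.05. The clones differed widely in general: 51.0% of all tested genes passed the same test, with 25.2% higher and 25.8% lower. Those are 3927 higher and 4023 lower genes, and scaling by library totals alone gave 4761 higher and 3176 lower, with the members' split of 4 higher and 2 lower the same. The members' median log2 difference was 0.17 against 0.0042 over all genes. The same 6 members had libraries of the 2 tags that did not overlap in CPM, against 67.5% of all genes. In 4 of them B212 lay above A4, against 34.7% of all genes, and in 2 below, against 32.8%. The count of 6 of 8 is to be read against these backgrounds. No clone had replicate libraries of a treatment, so the DMSO and E2 libraries of a clone stood in for its replicates. The SE and adjusted p between the tags thus come from how the tag difference varied between the treatments.

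CLDN1 forms the barrier-type strands of epithelia and epidermis. It was measured at 220.1 CPM in A4 with DMSO, 176.3 in A4 with E2, 123.1 in B212 with DMSO and 93.3 in B212 with E2. Both A4 libraries were above both B212 libraries. The log2 difference of B212 from A4 was -0.88 ± 0.069 (SE), with an edgeR adjusted p of 2.13e-09.

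CLDN16, its neighbour on chromosome 3, is best known for magnesium reabsorption between the cells of the kidney tubule. Its levels were 11.6 and 9.86 CPM in A4 with DMSO and E2, and 7.33 and 5.47 CPM in B212. Both B212 libraries were lower, as for CLDN1. The log2 difference was -0.75 ± 0.11 with an edgeR adjusted p of 1.01e-05. Neither gene's exons overlap another gene in the annotation, and CLDN1 shared 0% of its 32-base words with any other annotated gene. CLDN16 shared 3.92% of its words with 1189 genes, CLDN15 and CLDN19 among them.

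CLDN4, a barrier-type claudin and a receptor for the enterotoxin of Clostridium perfringens, had the largest difference between the tags among the members. It stood at 30.1 and 29.7 CPM in A4 with DMSO and E2, and at 76.6 and 68.6 CPM in B212. The A4 pair was nearly equal, and both B212 libraries lay well above it. The fitted fold was 2.43 (log2 difference 1.28 ± 0.077, edgeR adjusted p = 3.29e-11).

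CLDN3, the other enterotoxin receptor and the chromosome 7 neighbour of CLDN4, differed much less. It was at 30.9 and 31.6 CPM in A4 with DMSO and E2, and at 36.5 and 37.3 CPM in B212. The B212 libraries were both higher, without overlap. The log2 difference was 0.24 ± 0.079 with an edgeR adjusted p of 0.0157, and this call was lost with DESeq2 (adjusted p = 0.0879) and without the treatment term (0.0936).

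CLDN7, which binds the adhesion protein EPCAM in epithelial cells, was measured at 62.1 and 73.8 CPM in A4 with DMSO and E2, and at 100.01 and 103.1 CPM in B212. Both B212 libraries were higher. The log2 difference was 0.58 ± 0.073 with an edgeR adjusted p of 1.60e-06. EPCAM itself was at 505.4 and 553.4 CPM in A4 and 575.4 and 577.2 CPM in B212, a log2 difference of 0.12 ± 0.073 that did not pass the test. In the GRCh38 annotation 13% of the CLDN7 exons overlap another gene on the same strand, and how the authors' counting treated such reads was not given in the sources used here.

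CLDN15, which forms cation pores, was at 4.79 and 4.46 CPM in A4 with DMSO and E2, and at 5.55 and 7.01 CPM in B212. The tags did not overlap, and the B212 library with E2 was the highest. The log2 difference was 0.43 ± 0.13 with an edgeR adjusted p of 0.00949. It was 0.21 within the DMSO libraries and 0.65 within the E2 libraries, and the call was lost with DESeq2 (adjusted p = 0.0992) and without the treatment term (0.0775).

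CLDN12 and CLDN9 did not pass the test between the tags. CLDN12, which has been linked to paracellular calcium transport, was at 82.9 and 96.4 CPM in A4 with DMSO and E2, and at 85.6 and 90.6 CPM in B212. Its tags overlapped, with a log2 difference of -0.022 ± 0.071 that became 0.045 when only library totals were used for scaling. CLDN9, a claudin needed in the inner ear, was at 0.888 and 0.731 CPM in A4 and at 0.949 and 0.791 CPM in B212. It had 58 to 81 counts per library and a log2 difference of 0.10 ± 0.25, so a difference smaller than that error was not detectable.

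**Figure D2:**
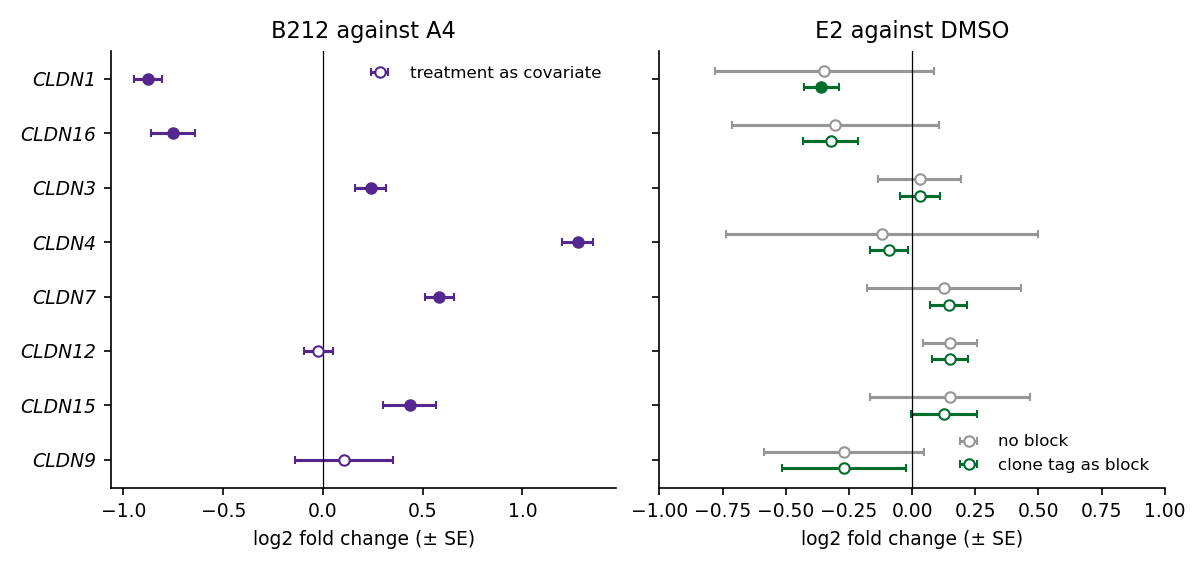
Log2 fold changes with standard errors for the 8 tested claudins, B212 against A4 on the left and E2 against DMSO on the right, the latter without and with the clone tag as a block. Filled symbols have an adjusted p under 0.05 by edgeR. CLDN4 is at 1.28 and CLDN1 at -0.88 between the tags, and with the block CLDN1 is the filled symbol for E2.

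Although single claudins differed, their sum per kilobase was similar in all libraries, at 154.0 and 150.6 CPM per kb in A4 with DMSO and E2, and 159.8 and 152.8 in B212. What differed was the make-up. CLDN1 gave 41.1% and 33.6% of the summed level in A4 with DMSO and E2, and 22.1% and 17.5% in B212. CLDN7 gave 19.5% and 23.8% in A4, and 30.3% and 32.7% in B212. Per kb, CLDN1 was thus the leading claudin in both A4 libraries and CLDN7 in both B212 libraries. The lead in B212 depends on the exon lengths used, 3481 bases for CLDN1 and 2064 for CLDN7. In CPM alone CLDN1 lay above CLDN7 in B212 with DMSO, at 123.1 against 100.01. With E2 in B212 it lay below, at 93.3 against 103.1. CLDN4 gave 4.66% and 4.70% in A4, and 11.4% and 10.7% in B212. The ratio of CLDN1 to CLDN4 per kb was 8.82 and 7.16 in A4, and 1.94 and 1.64 in B212. CLDN3 and CLDN12 varied less, with CLDN3 between 15.8% and 19.1% and CLDN12 at no more than 17.9%. Fewer cells making a claudin and less of its RNA per cell cannot be told apart in bulk libraries.

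**Figure D3:**
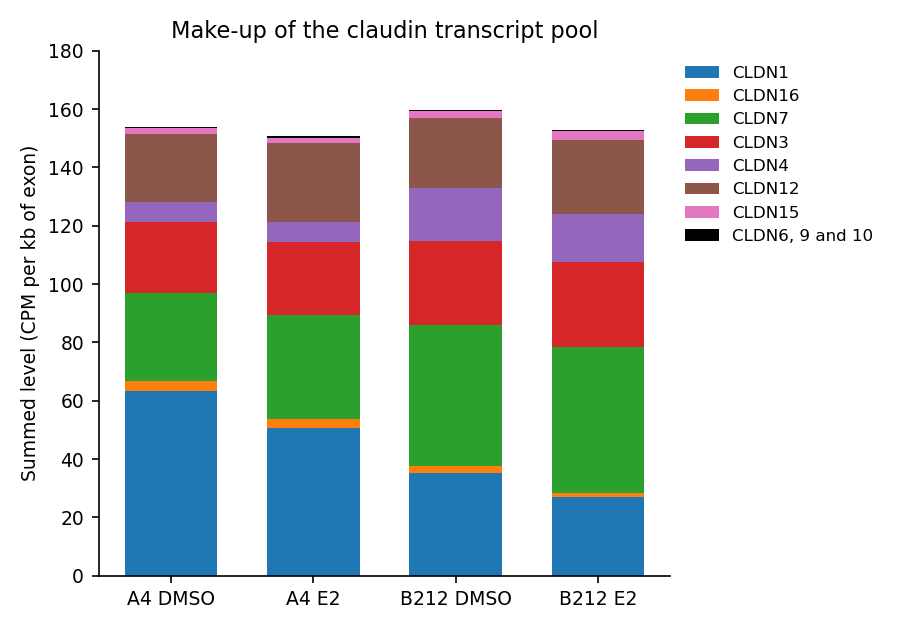
Summed level of the claudins in each library, in CPM per kilobase of exon, with each coloured segment 1 claudin and CLDN6, CLDN9 and CLDN10 drawn together in black. The bars are of similar height, from 150.6 to 159.8, while the CLDN1 segment is larger in A4 and the CLDN4 and CLDN7 segments are larger in B212.

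The question of the treatment was whether E2 alters claudin expression within 8 h in cells whose receptor is already mutant. Without a block for the clone, 0 of 15599 genes passed edgeR's test, 150 had an unadjusted p under 0.05, and DESeq2 called 1. The 8 tested claudins were all at an adjusted p of 0.999925. With the clone tag as a block, which compares each E2 library with the DMSO library of its own clone, 9.56% of all tested genes passed, 6.13% higher and 3.44% lower. Of the 8 claudins 1 passed, CLDN1. The members' median log2 change with the block was -0.030 against -0.0081 over all genes. ESR1 passed with the block at a log2 change of -0.25 ± 0.070 (edgeR adjusted p = 0.0330). So did the markers KRT18 (-0.27 ± 0.071, 0.0230) and PAX8 (-0.25 ± 0.072, 0.0358), and VWF and COL1A1, given below. The E2 and tag comparisons use the same 4 libraries.

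CLDN1 was lower with E2 in both clones, by the CPM values given above. The log2 difference was -0.32 in A4, with a counting interval of -0.35 to -0.29, and -0.40 in B212, with an interval of -0.44 to -0.35. With the block CLDN1 fell by 0.36 ± 0.069 on the log2 scale (edgeR adjusted p = 0.00419). Without it the change was -0.35 ± 0.43. The biological coefficient of variation that edgeR estimated was 32.2% without the block, a value that includes the difference between the clones, and 5.99% with it. No clone had replicate libraries of a treatment. The blocked value, and the SE and adjusted p that rest on it, thus come from how the E2 changes of the clones differed. The E2 and DMSO groups overlapped when the clones were pooled. CLDN1 passed the test in each of the 6 fits with the block, at adjusted p-values of 0.000454 to 0.0236.

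CLDN16 was also lower with E2 in both clones, by -0.23 in A4 and -0.42 in B212 on the log2 scale. With the block its change was -0.32 ± 0.11 with an edgeR adjusted p of 0.0675. It passed in 2 alternatives with the block, scaling by library totals (0.0441) and removal of a length and GC trend (0.0176). Its directions matched those of its neighbour CLDN1 in both comparisons, which share libraries.

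CLDN7 and CLDN12 were higher with E2 in both clones without passing the test. CLDN7 differed by 0.25 in A4 and 0.044 in B212, and CLDN12 by 0.22 and 0.082, on the log2 scale. The counting interval of CLDN7 in B212, -0.0013 to 0.088, includes 0. The blocked edgeR adjusted p was 0.221 for CLDN7 and 0.190 for CLDN12. CLDN12 was the one member whose E2 libraries both lay above its DMSO libraries. CLDN9 was the one member whose E2 libraries both lay below, with log2 differences of -0.27 and -0.25 and counting intervals that include 0. Such separation of the treatments was found for 25.0% of all tested genes, 13.2% with E2 above and 11.8% with E2 below.

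CLDN3 and CLDN4 moved little. CLDN3 differed by 0.031 and 0.030 between E2 and DMSO in A4 and B212 on the log2 scale, and CLDN4 by -0.019 and -0.16. Counting intervals included 0 for CLDN3 in both clones and for CLDN4 in A4. Their blocked edgeR adjusted p-values were 0.848 and 0.491, and both changed sign when the trend with length and GC content was removed, to -0.012 for CLDN3 and 0.035 for CLDN4. CLDN15 went in opposite directions, by -0.10 in A4 and 0.33 in B212. Of the 8 tested members, 7 thus had one direction in both clones by sign alone, against 70.1% of all genes. E2 was above DMSO in both clones for 3 members, against 33.3% of all genes, and below for 4, against 36.8%.

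**Figure D4:**
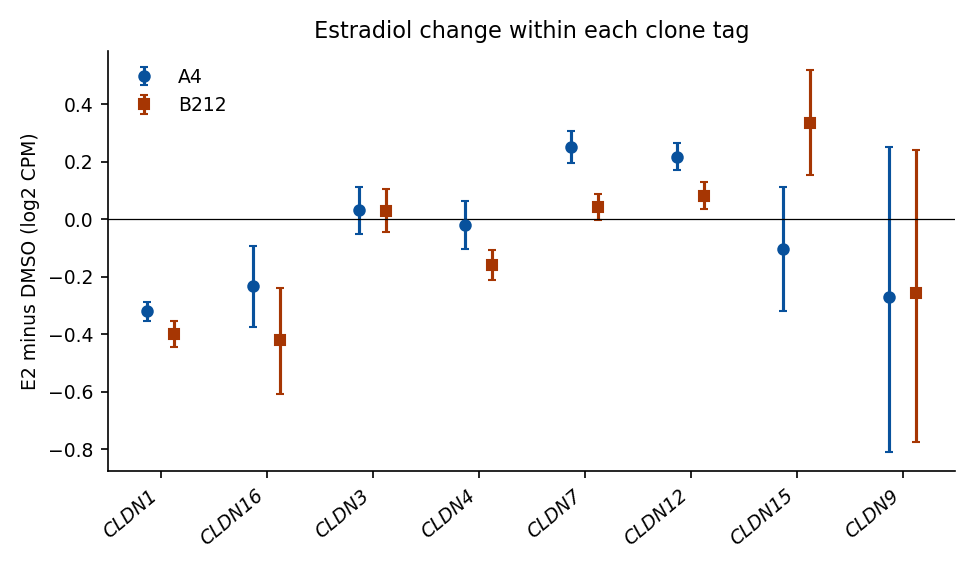
E2 minus DMSO within each clone tag, on the log2 CPM scale, for the 8 tested claudins; bars are 95% counting intervals of 1 library against 1 library and hold no biological spread. CLDN1 lies at -0.32 in A4 and -0.40 in B212, and CLDN15 lies on opposite sides of 0.

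Of the 14 claudins that were not members, 6 passed the filter on low counts. CLDN11, known from myelin and the testis barrier, was lower in B212, at 8.53 and 9.08 CPM in A4 with DMSO and E2 and 4.07 and 4.02 CPM in B212 (log2 difference -1.12 ± 0.12, edgeR adjusted p = 1.51e-07). In the annotation 27.2% of its exons overlap another gene on the same strand. CLDN23 was higher in B212, with 119 and 112 counts in A4 and 241 and 224 in B212 (log2 difference 0.98 ± 0.17, edgeR adjusted p = 9.27e-05). CLDN5, the claudin of endothelium, had only 9 and 3 counts in A4 with DMSO and E2 and 40 and 11 in B212. CLDN5 passed the filter on low counts only through its B212 libraries, so a call between the tags could hardly be other than higher. It passed between the tags (1.94 ± 0.50, edgeR adjusted p = 0.00324), though not with DESeq2 or without the treatment term. With the block it fell by 1.65 ± 0.50 after E2 (adjusted p = 0.0407), a call that 3 of the 5 other blocked fits did not return. Among endothelial markers measured in these libraries VWF, at 2.04 to 4.36 CPM, and KDR were higher in B212. After E2, with the block, VWF fell by 0.49 ± 0.15 on the log2 scale (adjusted p = 0.0441), and KDR, at -0.43 ± 0.34, did not pass. PECAM1, another endothelial marker, had 0 counts in all libraries. CDH5 had 7 and 6 counts in A4 with DMSO and E2 and 12 and 7 in B212, too few for a test. The part of these markers in the CLDN5 values was not tested. CLDN17, CLDN22, CLDN25 and CLDN34 had 0 counts in all libraries.

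The proteins that claudins work with at the junction were tested as a list of 29 genes, all above the filter. Between the tags 13 were higher in B212 and 3 lower, together 55.2% against 51.0% of all genes, with a median log2 difference of 0.17. All 6 called scaffold genes, of 11, were higher in B212, which is 54.5% against 51.0% of all genes called and 25.2% called higher. Among them cingulin, CGN, which links the junction to actomyosin, was at 21.5 and 16.5 CPM in A4 with DMSO and E2 and 32.5 and 26.9 CPM in B212 (log2 difference 0.65 ± 0.084, edgeR adjusted p = 2.36e-06). MAGI1, a multi-PDZ scaffold, differed by 0.47 ± 0.081 and TJP1, which encodes ZO-1 and anchors claudin tails, by 0.34 ± 0.071. Of the 8 polarity genes 4 were higher, which is 50% against the same shares, led by PARD6B at 0.53 ± 0.085.

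The other membrane proteins of the junction were mixed, with 3 higher and 3 lower of 10, together 60% against 51.0% of all genes. MARVELD3, a relative of occludin, was higher in B212 by 0.50 ± 0.087 and ILDR1, a protein of tricellular corners, by 0.62 ± 0.12, on the log2 scale. The lower 3 were ILDR2 (-1.25 ± 0.21), LSR (-0.23 ± 0.069) and JAM2 (-0.43 ± 0.16). Occludin itself, OCLN, was at 41.7 and 46.0 CPM in A4 and 40.2 and 41.4 CPM in B212 and did not pass. Scaling by library totals alone gave 15 higher and 1 lower of the 29, without LSR and JAM2. Without the treatment term 8 of the 29 passed in place of 16, with 7 higher and 1 lower.

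After E2, with the block, 3 of the 29 partners passed and all 3 were lower, which is 10.3% against 9.56% of all genes. CGN was lower in the E2 library of each clone by the CPM values given above and fell by 0.33 ± 0.084 on the log2 scale (edgeR adjusted p = 0.0193). In the same test SYMPK, which encodes symplekin, a protein found at junction plaques and in the RNA 3′ processing machinery, fell by 0.24 ± 0.071 (0.0352). All 11 scaffold genes had a fitted change below 0, with a median of -0.22, against 51.5% of all genes. With a trend in length and GC content removed 1 of the 29 passed, and neither CGN nor SYMPK did. Without the block 0 of the 29 passed, and 1 had an unadjusted p under 0.05.

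Of 19 genes known to bind claudins or act on their transcription or phosphorylation, 18 were tested and 11 passed between the tags, 8 higher and 3 lower. This was 61.1% against 51.0% of all genes, and 7 passed with DESeq2. Of the 7 epithelial transcription and splicing factors 6 were higher in B212, with a median log2 difference of 0.53. That is 85.7% against 51.0% of all genes called and 25.2% called higher. ELF3, an ETS factor of epithelia, was at 43.7 and 44.5 CPM in A4 and 84.6 and 76.4 CPM in B212 (0.87 ± 0.075, edgeR adjusted p = 8.97e-09). KLF5 differed by 0.55 ± 0.077, GRHL1 by 0.53 ± 0.090 and GRHL2 by 0.39 ± 0.069.

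Of the 4 tested mesenchymal factors 2 were called, ZEB1 and SNAI2, both lower in B212. This was 50% against 51.0% of all genes called, and 25.8% of all genes were called lower. ZEB1 was measured at 6.40 and 6.62 CPM in A4 with DMSO and E2, and at 1.36 and 1.41 CPM in B212 (log2 difference -2.23 ± 0.15, edgeR adjusted p = 1.14e-10). SNAI2 had 27 and 48 counts in A4 with DMSO and E2 and 0 in both B212 libraries. Against a floor of 3 counts per library it was at least 10.5-fold lower with DMSO and at least 14.3-fold lower with E2. SNAI2 passed the filter on low counts only through A4, so it could only be called lower and its call is no support. The 3 regulators called lower include it, and a filter of at least 10 counts in every library removed it. SNAI1 and TWIST1 did not pass, at -0.32 ± 0.16 and -0.038 ± 0.099. ZEB2 had 0 counts in A4 and 1 and 7 in B212 and was not tested. Of the 7 fibroblast markers, COL1A1 (-1.51 ± 0.075), COL1A2 (-1.52 ± 0.29) and COL3A1 (-2.40 ± 0.33) were also lower in B212 by edgeR. COL1A1 fell by 0.39 ± 0.074 on the log2 scale after E2 with the block (adjusted p = 0.00394), as CLDN1 did. The part of these markers in the claudin differences was not tested.

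Of the remaining regulators, SPINT1, an inhibitor of the membrane protease matriptase, was lower in B212 by -0.51 ± 0.069 on the log2 scale. After E2, with the block, 3 of the 18 regulators passed, 1 higher and 2 lower, which is 16.7% against 9.56% of all genes. SPINT1 was at 209.5 CPM with DMSO and 172.7 with E2 in A4, and at 147.2 and 120.8 CPM in B212, lower with E2 in each clone. It fell by 0.28 ± 0.068 on the log2 scale (edgeR adjusted p = 0.0146), and KLF5 fell by 0.26 ± 0.077 (0.0386). SPINT1 was called in 5 of the 6 blocked fits, all but the one with the trend in length and GC content removed, and KLF5 in 3 of the 6.

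**Figure D5:**
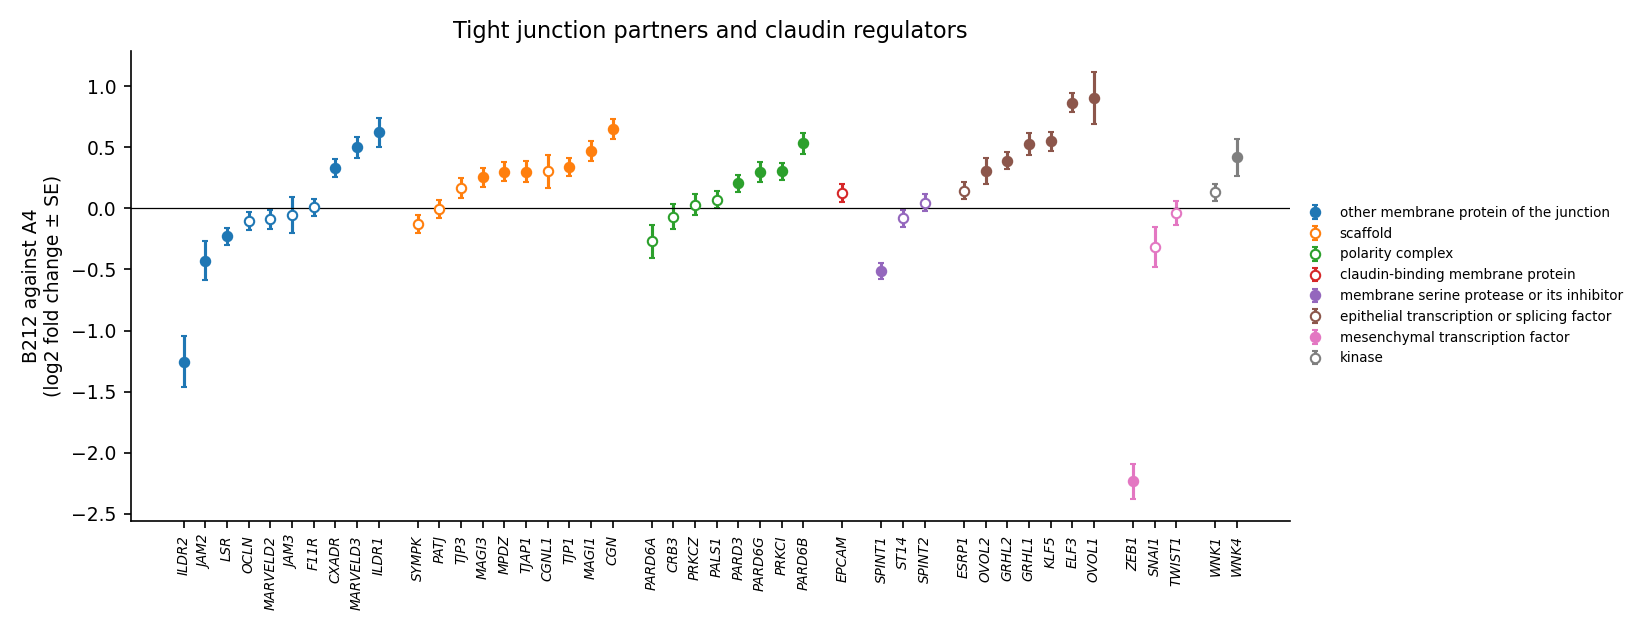
Log2 fold change of B212 against A4 with its standard error for tight junction partners and claudin regulators, coloured by role. Filled symbols have an adjusted p under 0.05 by edgeR, and SNAI2 is left out because it had 0 counts in B212; not every gene of the lists is drawn. The epithelial factors lie above 0 and ZEB1 lies at -2.23.

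The genes whose pattern over the 4 libraries was nearest to CLDN4 were sought among 13397 tested genes with a mean of at least 50 counts, by the distance of centred log2 CPM. HTRA1, which encodes a secreted serine protease, was nearest at a distance of 0.046, with 9.33 and 9.63 CPM in A4 and 24.4 and 21.7 CPM in B212. SERTM1 followed at 0.054 and BLNK at 0.071. With 4 libraries such a match describes the values only.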

How the data were processed

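The deposited table held raw read counts per gene symbol, and the authors' tools were HISAT2, SAMtools, featureCounts and DESeq2 on hg19 per the submitters' processing notes, which give no versions or roles. Libraries were stranded and poly(A)-selected per the labels' protocols. The strand setting and annotation used for counting were not given in the sources used here. The table also holds 4 per-sample columns that belong to no sample of the series, and these were left out. Each column was placed by the treatment in its name, and the tag in the name took the place of the clone number.

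Genes were filtered by filterByExpr (minimum count 10) and scaled by TMM. Changes were tested by edgeR's quasi-likelihood test (edgeR 4.0.16, R 4.3.3) with Benjamini-Hochberg adjustment over all 15599 tested genes and a threshold of 0.05. E2 was compared with DMSO without a block, the main fit, which leaves out the pairing by clone, and with the tag as a block. Each tag gave 1 library per treatment, as the labels say of each clone, so the tags pair the libraries. The deviations of same-tag libraries from the treatment means correlated across genes (Pearson r = 0.871), a single independent value with 2 groups of 2. For the claudins, ESR1, the cell type markers and the list genes named here, the blocked value is printed where it changes a call. B212 was compared with A4 with treatment as a covariate. The SE of a log2 change was computed from that change and edgeR's F value, and log2 CPM had a prior count of 2. Within a tag, differences have 95% intervals from the exact binomial (Clopper-Pearson) split of the 2 counts, which cover counting error only. Levels per kb used the union of exons in GENCODE 29 (GRCh38), and 93.5% of tested genes had a length and GC content. Figures were drawn with matplotlib 3.10.9 in Python 3.11.15.

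The text names all 10 members, the called genes of the other lists (at most 4 per direction, smallest p first), ESR1, the cell type markers and the 3 genes nearest in pattern to the member with the largest tag difference. TJP1, ILDR1, OCLN, SNAI1, TWIST1 and ZEB2 are named beyond that rule and were chosen after their values were seen. Some items that the rule took are not reported here. The members, lists and rules were chosen with earlier results of these data known. Alternatives used DESeq2 1.42.0, limma 3.58.1 and mgcv 1.9.3. Tested on simulated counts for 15599 genes with 200 changed by a log2 value of 1, the E2 comparison recovered 0 without the block and 200 with it (3 false calls) when the tag differences were as measured. With no tag difference simulated, the fit without the block recovered 199, with 7 false calls. The simulated counts had a coefficient of variation near the blocked fit's 5.99% and the same E2 change in both tags. Recovery with the block was thus largely set in advance and does not test either setting. The tag comparison, simulated with no other difference between the tags, recovered 198, with 9 false calls. No 2 libraries agreed within sampling noise (chi-square per degree of freedom 25.9 to 207.6), so each counted as 1 library.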

Additional observations from a re-analysis of the deposited data

Results flagged for a closer look

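The E2 difference of CLDN15 had opposite signs in the 2 clones, at -0.10 on the log2 CPM scale in A4 (351 counts with DMSO and 366 with E2, counting interval -0.32 to 0.11) and 0.33 in B212 (474 and 514 counts, interval 0.15 to 0.52). The difference between the clones, 0.44, was not tested, since each clone had 1 library per treatment. No group had enough libraries for a check of single outlying samples.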

How the results depend on the processing

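For E2 against DMSO, where 0 genes and 0 claudins passed without the block, DESeq2 called 1 gene. The pairing by tag as a replicate block called 1492 genes and 1 claudin, and with that block DESeq2 size factors gave 717 and 1, library totals alone 1686 (911 higher and 775 lower) and 2, DESeq2 562 and 1 (7561 genes without an adjusted p), limma-voom 1138 and 1, and removal of the length and GC trend 910 and 2. Leaving out any 1 library kept 0 genes and 0 claudins, with the lone library of an arm assumed to vary like the others. These fits without the block moved the E2 log2 change between -0.90 and 0.13 for CLDN1, -0.093 and 0.15 for CLDN3, -0.85 and 0.70 for CLDN4, -0.18 and 0.51 for CLDN7, -0.21 and 0.42 for CLDN15 and -0.81 and 0.064 for CLDN16, because the arms then hold unequal numbers of each clone. Trend removal with the block reversed CLDN3 (-0.012) and CLDN4 (0.035). For B212 against A4, where 7950 genes passed, the fit without the treatment term called 4456 (2297 higher and 2159 lower), and the cause was not tested. Library totals alone turned CLDN12 from -0.022 to 0.045, while the median of all genes shifted by 0.067. CLDN1, CLDN4, CLDN7 and CLDN16 kept their calls in each alternative tested. Leaving out a library there leaves no residual degrees of freedom, so it gave values without calls: 1.17 to 1.35 for CLDN4, -0.95 to -0.84 for CLDN1 and 0.21 to 0.65 for CLDN15. Scaling moved the median of all genes by at most 0.067 (log2). With 58 to 81 counts per library, CLDN9 was limited by depth.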
